A study of Homo sapiens with 4 samples.

Results

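The genes described here are 10 immediate early regulators: the AP-1 subunits FOS, FOSB, FOSL1, JUN, JUNB and JUND, the zinc finger factors EGR1 and KLF6, the nuclear protein IER2 and the factor MYC. They were chosen by gene name from a list of immediate early factors, and 7 of the 10 have a row among the 8727 genes of the authors' deposited table. JUN, JUND and KLF6 have no row, so they carry no value and are not analysed here. The RNA came from HepG2, a human liver cancer line whose source label reads hepatoblastoma. The treated group is 2 libraries of cells exposed for 24 h to isoginkgetin at 20 µM, and the control group is 2 libraries of cells exposed to DMSO, the solvent. Isoginkgetin, a biflavonoid from plants, is best known for inhibiting the spliceosome. The comparison asks which transcripts differ after treatment. The labels do not say whether the replicates were separate cultures, so the p-values cover only variation among these libraries, possibly technical.

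Immediate early genes are transcribed within minutes of a growth factor, stress or calcium signal, without new protein synthesis, and most of their mRNAs decay quickly. Fos and Jun proteins pair through leucine zippers to form AP-1. Fos proteins need a Jun or related partner to bind DNA well, whereas Jun proteins can also pair with each other. MYC pairs with MAX, and EGR1 binds GC-rich sites. In liver, several of these genes are known for their induction at the start of regeneration after surgical removal of tissue.

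The authors' deposited table lists per gene a mean normalized count taken across the libraries together with a log2 fold change, its standard error (SE), a p-value and an adjusted p. The adjusted p is below 0.05 in every row, and for genes without a row the direction is not known. The header does not name the numerator, and fold changes are read here as isoginkgetin over DMSO, the usual order. With the other order each direction below would be turned. Values per library are not analysed here. Of 16 hepatocyte markers 13 have a row in the authors' deposited table, at means from 442 to 157429 normalized counts, and 12 of them were lower. FGA, a fibrinogen chain, had a log2 fold change of −1.64 (SE 0.05), FGB, another, of −0.83, the plasma protein AHSG of −1.17, the fetal protein AFP of −1.04 and the lipoprotein APOB of −0.96, by the authors' deposited table. Of 16 markers of fibroblasts, leukocytes and endothelium 4 have a row, all lower, and LYZ, the lysozyme gene, was the most abundant of these at a mean of 15328 per the authors' deposited table. LYZ stood at −1.08 (SE 0.05) and the endothelial marker PECAM1 at −0.68 (SE 0.27) by the authors' deposited table. The part of these changes in the results below was not tested.

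Start-site sequences from RefSeq (GRCh38.p14) cover 8 of the 10 genes, 5 of which have a row in the table. These 5 are printed because their genes all rose, by different amounts. Each runs 5′ to 3′ on the gene's strand from 250 bases before the start to 50 after it. The windows are chr14:75278578-75278877 (+) for FOS, chr19:45467746-45468045 (+) for FOSB, chr19:12791236-12791535 (+) for JUNB, chr5:138465229-138465528 (+) for EGR1 and chr19:13150161-13150460 (+) for IER2. Capitals mark matches, on either strand, to any of the motifs searched.
FOS: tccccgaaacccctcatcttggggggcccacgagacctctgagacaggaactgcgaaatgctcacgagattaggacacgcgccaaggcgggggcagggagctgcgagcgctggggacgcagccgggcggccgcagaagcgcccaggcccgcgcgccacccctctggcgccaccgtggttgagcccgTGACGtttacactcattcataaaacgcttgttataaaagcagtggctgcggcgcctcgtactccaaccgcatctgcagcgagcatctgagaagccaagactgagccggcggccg
FOSB: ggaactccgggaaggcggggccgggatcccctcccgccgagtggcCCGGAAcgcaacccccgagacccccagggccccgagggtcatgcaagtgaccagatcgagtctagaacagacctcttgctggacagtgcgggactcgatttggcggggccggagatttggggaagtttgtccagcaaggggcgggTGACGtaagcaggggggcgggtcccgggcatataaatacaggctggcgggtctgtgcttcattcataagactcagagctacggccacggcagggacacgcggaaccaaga
JUNB: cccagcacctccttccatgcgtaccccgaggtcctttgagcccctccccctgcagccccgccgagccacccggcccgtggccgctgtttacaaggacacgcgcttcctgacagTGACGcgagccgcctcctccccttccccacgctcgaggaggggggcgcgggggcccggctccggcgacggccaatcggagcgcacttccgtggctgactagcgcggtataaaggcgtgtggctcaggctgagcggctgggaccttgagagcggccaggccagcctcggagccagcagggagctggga
EGR1: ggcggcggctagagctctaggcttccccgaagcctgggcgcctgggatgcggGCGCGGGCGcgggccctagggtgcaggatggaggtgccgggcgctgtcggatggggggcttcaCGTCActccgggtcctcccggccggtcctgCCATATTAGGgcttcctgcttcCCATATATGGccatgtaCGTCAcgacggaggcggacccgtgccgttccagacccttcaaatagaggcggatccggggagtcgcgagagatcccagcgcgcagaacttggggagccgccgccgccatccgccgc
IER2: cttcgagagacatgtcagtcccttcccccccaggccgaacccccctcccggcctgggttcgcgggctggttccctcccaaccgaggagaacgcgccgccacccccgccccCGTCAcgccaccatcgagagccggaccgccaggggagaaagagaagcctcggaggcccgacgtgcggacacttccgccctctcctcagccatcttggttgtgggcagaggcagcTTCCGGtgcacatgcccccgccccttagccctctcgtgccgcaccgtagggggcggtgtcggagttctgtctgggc

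The motif these windows had in common was the core of the cAMP response element (CRE), TGACG, which CREB and ATF proteins read. It stood in all 5 printed windows and in 7 of the 8 windows of the whole list, with KLF6 as the exception, against 24.6% of all 35116 RefSeq windows. The core lay at −64 to −60 in FOS, −60 to −56 in FOSB, −137 to −133 in JUNB and −140 to −136 in IER2, counted from the start. EGR1 held it at −135 to −131 and at −66 to −62. The full CRE, TGACGTCA, which contains the core, was found only in JUND among the 8 windows (1.85% of all windows). Among the 8 windows the CArG box, the site of serum response factor, occurred in EGR1 alone, at −105 to −96 and −83 to −74 (1.29% of all windows). The AP-1 site TGANTCA was in none of the 8 windows (7.71% of all windows). The EGR site GCGNGGGCG was in EGR1 and KLF6 (9.43% of all windows), and the ETS core CCGGAA was in IER2 and FOSB (17.2%). The E-box CACGTG, the MYC and MAX site, was in KLF6 (7.26%). GC content was 62% to 77% in these windows and 58.7% in the median window, and its part in these shares was not tested. A match is a run of letters, and binding was not measured. Sequence outside the windows was not searched. A gene without a match here, such as FOS for the CArG box, may hold one further from the start.

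All 7 genes with a value rose after isoginkgetin. They are 70% of the 10 listed, and whether the other 3 were tested is not known. Of the 20024 genes tested, 43.6% had an adjusted p under 0.05, with 22.4% of those tested higher and 21.1% lower. The median log2 fold change of the 7 was 1.19 per the authors' deposited table, where the median over all 8727 genes was 0.21. Over the 4493 genes that rose, which is the closer comparison, the median was 0.63. In bulk RNA, a change in the number of cells that carry a transcript and a change per cell cannot be told apart. With an adjusted p under 0.001 the same 5 genes passed as under Bonferroni and at 1.5-fold or more, namely FOS, FOSB, JUNB, EGR1 and MYC. The shares of all tested genes that rose under these rules were 14.5%, 10.7% and 12.2%. At 2-fold or more 4 genes were left, against 6.26% of all tested genes, since MYC stood just below that line.

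**Figure D1:**
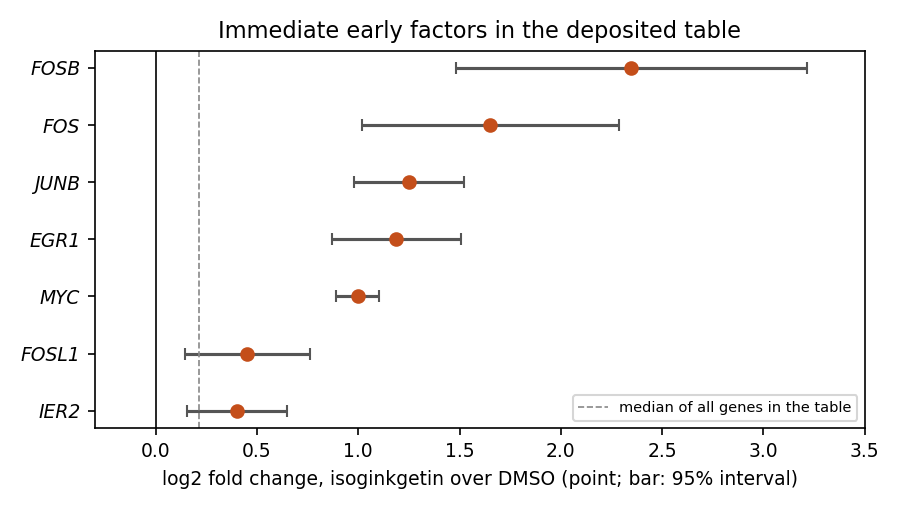
Log2 fold change, isoginkgetin over DMSO, of the 7 immediate early factors in the authors' deposited table; points are the deposited estimates, bars are 95% intervals and the dashed line is the median of all genes in the table (0.21). The points run from 0.40 for IER2 to 2.35 for FOSB, and no bar reaches 0. The bars of FOSL1 and IER2 cross the dashed line.

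The Fos genes differed in size of change. FOSB, a Fos relative with a known short splice form that lacks the transactivation end, rose most, at a log2 fold change of 2.35 with SE 0.44 and an adjusted p of 5.1e-08 per the authors' deposited table. That is 5.09-fold, with a 95% interval of 2.80 to 9.27. FOS, the founding member of the family, stood at 1.65 (SE 0.32, adjusted p 2.08e-07) per the authors' deposited table, or 3.14-fold (2.03 to 4.88). FOSL1, which encodes FRA-1, stood at 0.45 (SE 0.16, adjusted p 0.00747) per the authors' deposited table, or 1.37-fold (1.11 to 1.69). The intervals of FOS and FOSB overlapped, and that of FOSL1 lay below both.

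The order of abundance in this family was the reverse. Means over all libraries were 67.2 normalized counts for FOSB, 106 for FOS and 583 for FOSL1 per the authors' deposited table. Per kilobase of exon, with lengths from GENCODE 29, these means came to 12.1, 32.6 and 309 normalized counts. The annotation the authors counted on may give other lengths. FOSB overlaps ERCC1, a DNA repair gene on the opposite strand, which has no row in the table, and the library kit keeps no strand, so reads in the overlap cannot be assigned. At such low means the SE is large, and the median SE of the 200 genes closest in mean was 0.41 for FOSB and 0.32 for FOS in the authors' deposited table.

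JUNB, the Jun protein known to restrain JUN on some targets, was the only Jun gene with a value. Its log2 fold change was 1.25 (SE 0.14, adjusted p 6.11e-19) at a mean of 686 normalized counts in the authors' deposited table, a 2.38-fold rise (1.97 to 2.87). HOOK2, which overlaps JUNB on the opposite strand, fell by 0.79 on the log2 scale (SE 0.15) per the authors' deposited table, so the counts of the 2 genes went in opposite directions. Here too reads in the overlap cannot be assigned, because the library kit keeps no strand. EGR1, a zinc finger factor downstream of ERK and serum response factor, stood at 1.19 (SE 0.16, adjusted p 3.61e-13) at a mean of 558 normalized counts in the authors' deposited table, or 2.28-fold (1.83 to 2.84). IER2, a short-lived nuclear protein, moved least, at 0.40 (SE 0.13, adjusted p 0.00333) and a mean of 660 normalized counts in the authors' deposited table, or 1.32-fold (1.11 to 1.57). An antisense gene, AC011446.2, overlaps IER2 in GENCODE 29 and has no row under that name. JUNB, EGR1, FOSL1 and IER2 thus had like mean counts, not adjusted for exon length, and unlike changes: the intervals of JUNB and EGR1 lay above those of FOSL1 and IER2. For their level, EGR1, FOSL1 and JUNB had wide errors, since 99%, 97.5% and 94% of the 200 genes nearest in mean had a smaller SE.

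MYC, which drives growth and ribosome production, was the most abundant of the 7 and the most precisely measured. Its mean was 8755 normalized counts, rank 303 of the 8727 genes, and its log2 fold change was 0.997 (SE 0.05, adjusted p 2.56e-73) per the authors' deposited table. The rise was 1.996-fold, with a 95% interval of 1.85 to 2.15. Per kilobase of exon MYC averaged 2918 normalized counts, JUNB 377, IER2 215 and EGR1 178. PVT1, a long noncoding gene on the same strand beyond MYC, also rose, by a log2 fold change of 0.85 (SE 0.12) per the authors' deposited table; it was picked for its position.

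**Figure D2:**
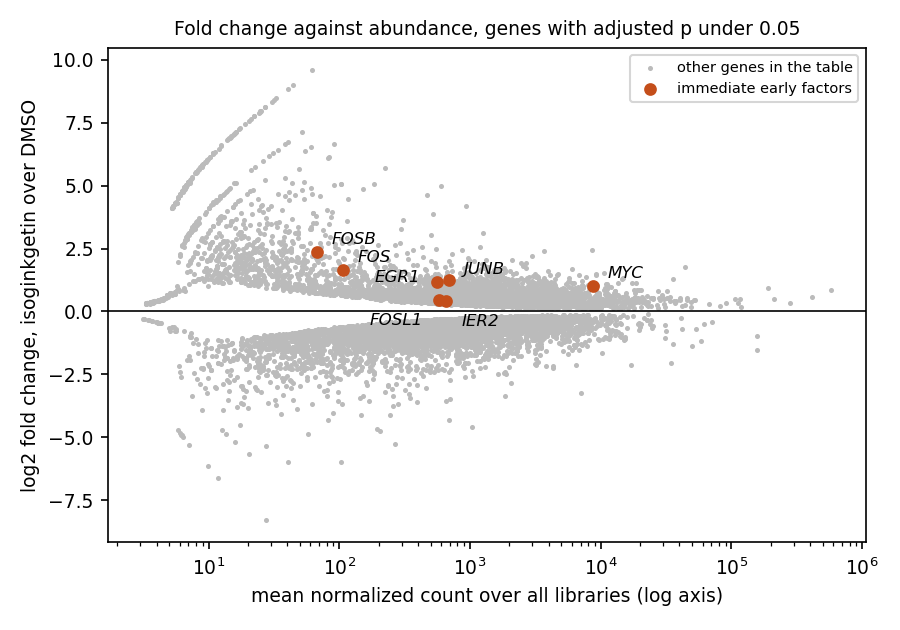
Mean normalized count over all libraries (log axis) against log2 fold change, isoginkgetin over DMSO, for the 8727 genes of the authors' deposited table (grey) and the 7 immediate early factors (orange). MYC lies far to the right at 8755 normalized counts and a log2 fold change of 0.997, while FOSB and FOS lie at the left with the larger changes.

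Of the 21 pairs among the 7 genes, 11 had intervals that did not overlap. The share of such pairs among all genes with a row was not computed, so this count is a description only. FOSL1 and IER2 lay below each of FOS, FOSB, JUNB, EGR1 and MYC, which makes 10 of these pairs, and the last is FOSB above MYC. The intervals treat each gene's error alone, since covariance between genes cannot be had from the table. Among the 4493 genes that rose in the authors' deposited table, FOSB ranked 426, FOS 665, JUNB 951, EGR1 1010, MYC 1263, FOSL1 3110 and IER2 3418. The upper 5 thus lie in the top 28.1% of that order, and FOSL1 and IER2 in its lower part. This order depends on abundance, since genes of low mean reach the table only with a large change. Among the genes nearest in mean, the median absolute log2 fold change was 1.20 for FOSB and 1.09 for FOS. It was 0.57 for JUNB, 0.60 for EGR1, 0.40 for MYC, 0.59 for FOSL1 and 0.58 for IER2. The upper 5 thus changed more than that median, and FOSL1 and IER2 less.

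Group means were computed from the deposited mean and fold change, given that each group has 2 libraries. They carry no spread of their own, because values per library are not used, and they are approximate, because the deposited fold changes look slightly shrunken: the fold change over its SE was 0.924 (FOSB) to 0.996 (MYC) of the normal deviate that its p-value implies. For MYC the implied mean was 11666 normalized counts with isoginkgetin and 5846 with DMSO. JUNB came to 965 with isoginkgetin and 406 with DMSO, and EGR1 to 775 with isoginkgetin and 340 with DMSO. These 3 thus gained the most normalized counts. FOS came to 160 with isoginkgetin and 51.0 with DMSO, and FOSB to 112 with isoginkgetin and 22.0 with DMSO. The larger folds of these genes sat on the lowest levels with DMSO, but this relation is partly built in. The DMSO level was computed from the fold, so at a given mean a larger fold gives a lower level. Genes of low mean also need a larger change to pass the adjusted p limit of the table. FOSL1 came to 674 with isoginkgetin and 492 with DMSO, and IER2 to 751 with isoginkgetin and 569 with DMSO. Of the summed gain over the 7 genes, 78.9% was MYC.

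**Figure D3:**
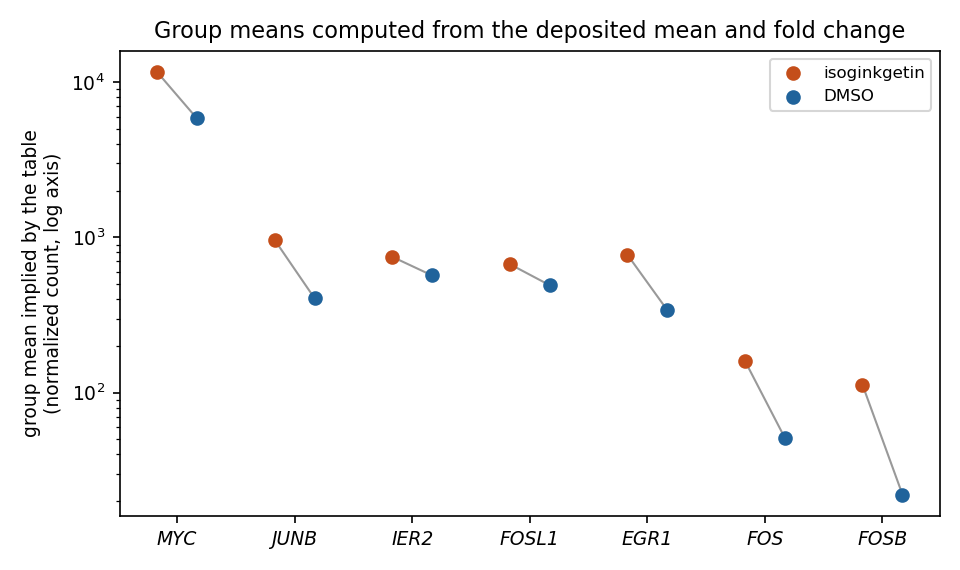
Group means (normalized counts, log axis) computed from the deposited mean and fold change for the 7 immediate early factors, isoginkgetin left in orange and DMSO right in blue, with a line joining the pair. Each orange point lies above its blue one, from 112 against 22.0 for FOSB to 11666 against 5846 for MYC; no error is drawn because values per library are not used.

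Partners and relatives of AP-1 mostly rose too. Of 20 listed bZIP relatives 14 have a row in the authors' deposited table, with 12 higher, 2 lower and a median log2 fold change of 0.68. For this and each list below, the shares over all genes are that 43.6% of those tested have a row. Of the genes with a row 51.5% were higher. ATF3, a stress-induced bZIP protein that pairs with Jun, stood at 2.02 (SE 0.13), ATF5 at 1.06 (SE 0.13) and the small Maf proteins MAFG and MAFF at 0.998 and 0.83 per the authors' deposited table. BATF2, a bZIP protein that pairs with Jun, stood at 0.74 (SE 0.22), and JDP2, a Jun partner known as a repressor, at 0.33 (SE 0.14) per the authors' deposited table. The 2 lower relatives were CREB1 at −0.73 (SE 0.10) and ATF7 at −0.52 (SE 0.17). Neither FOSL2 nor BATF3 has a row. Of 6 listed EGR relatives and NAB corepressors, which bind EGR proteins and damp them, 0 have a row.

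The KLF relatives of KLF6 were split: of 16 listed, 9 have a row, with 6 higher, 3 lower and a median of 0.36. KLF4 stood at 1.95 (SE 0.42) at a mean of 68.0 normalized counts, and KLF11, a TGF-beta-inducible repressor, at 1.21 (SE 0.10) per the authors' deposited table. KLF9 (0.66), KLF13 (0.49), KLF16 (0.36) and KLF10 (0.31) rose less in the authors' deposited table. KLF15 (−1.04), KLF3 (−0.87) and KLF12 (−0.75) were lower in the authors' deposited table.

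In the MYC network, 8 of 12 listed genes have a row, with 6 higher, 2 lower and a median of 0.37. MAX, the partner MYC needs to bind DNA, stood at 1.19 (SE 0.10), the MYC relative MYCL at 1.32 (SE 0.33) and MXD1, which competes with MYC for MAX and represses, at 1.999 (SE 0.11) per the authors' deposited table. The repressors MXI1 and MNT rose less, both at 0.33, in the authors' deposited table. MLXIPL, the glucose-responsive factor ChREBP, stood at −2.18 (SE 0.07) and MXD3 at −0.58 (SE 0.19) per the authors' deposited table. Known MYC targets were higher in 19 and lower in 4 of 23 with a row, of 25 listed, with a median of 0.45. Over all genes with a row 51.5% were higher, and of the 200 genes nearest MYC in mean 64.5% were higher. The part of abundance in the count of targets was not tested. ODC1, the first enzyme of polyamine synthesis, stood at 1.09 (SE 0.05), POLR1B, an RNA polymerase I subunit, at 1.02 (SE 0.07) and NOP16, a nucleolar protein, at 0.99 (SE 0.13) per the authors' deposited table. In the other direction TERT, the telomerase catalytic subunit, stood at −1.24 (SE 0.17) and CAD, a pyrimidine synthesis enzyme, at −0.99 (SE 0.07) per the authors' deposited table.

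Targets of the other factors were split. AP-1 targets were higher in 6 and lower in 3 of 9 with a row, of 19 listed, with a median of 1.12. The cytokine IL11 stood at 2.66 (SE 0.26), the EGF receptor ligands AREG and HBEGF at 1.26 (SE 0.25) and 1.20 (SE 0.29) and CXCL8 at 1.13 (SE 0.22), whereas SPP1, the secreted protein osteopontin, stood at −0.95 (SE 0.09) per the authors' deposited table. EGR1 targets were higher in 3 and lower in 5 of 8 with a row, of 14 listed, with a median of −0.57. The stress cytokine GDF15 stood at 1.29 (SE 0.04) and the cell cycle inhibitor CDKN1A at 0.85 (SE 0.08), while FN1, fibronectin, stood at −1.52 (SE 0.04), IGF2 at −0.99 (SE 0.13) and NR4A1 at −0.94 (SE 0.24) per the authors' deposited table.

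Other immediate early genes did not move as one group. Of 26 listed, 18 have a row, with 11 higher, 7 lower and a median of 0.36. PPP1R15A, which reverses eIF2α phosphorylation, stood at 2.40 (SE 0.08) and the kinase PLK2 at 1.17 (SE 0.15) per the authors' deposited table. CTGF, a matricellular protein, stood at −2.25 (SE 0.06) and the kinase SGK1 at −1.26 (SE 0.16) per the authors' deposited table.

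Upstream of these genes, the ERK cascade had 7 genes higher and 5 lower of 12 with a row, of 18 listed, with a median of 0.37. Its receptors ERBB3 and ERBB2 stood at −1.30 (SE 0.06) and −1.08 (SE 0.08) per the authors' deposited table, and the adaptors SHC1 and GRB2 and the kinase MAP2K1 at 0.52, 0.50 and 0.53. The JNK and p38 cascade had 5 higher and 6 lower of 11 with a row, of 22 listed, with a median of −0.37. GADD45A, an activator of that cascade, stood at 1.24 (SE 0.08), the kinases MAP2K6 and MAP3K11 at −1.01 (SE 0.16) and −0.83 (SE 0.09), MAPKAPK2 at 0.47 and MAPK14, which is p38 alpha, at −0.43 per the authors' deposited table. Among phosphatases and Sprouty proteins that feed back on these kinases, 7 were higher and 4 lower of 11 with a row, of 15 listed, with a median of 0.67. DUSP5, a nuclear ERK phosphatase, stood at 1.81 (SE 0.08), DUSP8 and DUSP10, phosphatases of JNK and p38, at 1.40 (SE 0.14) and 0.84 (SE 0.29), SPRY2 at 0.70 (SE 0.16) and SPRY1 at −1.20 (SE 0.09) per the authors' deposited table. The DUSP genes were split, since DUSP6 and DUSP16 were lower, at −0.62 (SE 0.07) and −0.67 (SE 0.07). The listed gene ERRFI1 was lower too, at −0.60 (SE 0.05).

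Serum response factor, its cofactors, CREB factors and the CREB kinases had 4 genes higher and 6 lower of 10 with a row, of 14 listed, with a median of −0.39. SRF itself, the serum response factor gene, stood at 0.30 (SE 0.09) per the authors' deposited table. CREB3, an ER-bound factor, stood at 1.23 (SE 0.11), while CREB1, a factor that reads the CRE, stood at −0.73 (SE 0.10), the kinase RPS6KA3 at −0.87 (SE 0.06), the SRF coactivator MKL2 at −0.61 (SE 0.09) and the ternary complex factor ELK3 at −0.43 (SE 0.14) per the authors' deposited table. Of the CREB and ATF genes on the lists not yet named, ATF4 (0.73), CREM (0.64), ATF1 (0.44) and ATF2 (0.21) were higher. CREB5 was higher too, at 1.97 (SE 0.50) and a mean of 48.6 normalized counts. Among genes that set the stability of these factors or their mRNAs, 6 were higher and 4 lower of 10 with a row, of 20 listed, with a median of 0.17. USP36, a deubiquitinase that stabilises MYC, stood at 1.47 (SE 0.06), FBXW7, the ubiquitin ligase subunit that targets MYC and JUN, at 0.92 (SE 0.12) and SIRT1, a deacetylase, at 0.85 (SE 0.10) per the authors' deposited table. HNRNPD, a protein that binds AU-rich mRNA, stood at 0.34 (SE 0.06) and USP28, another MYC deubiquitinase, at −0.32 (SE 0.12) per the authors' deposited table.

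**Figure D4:**
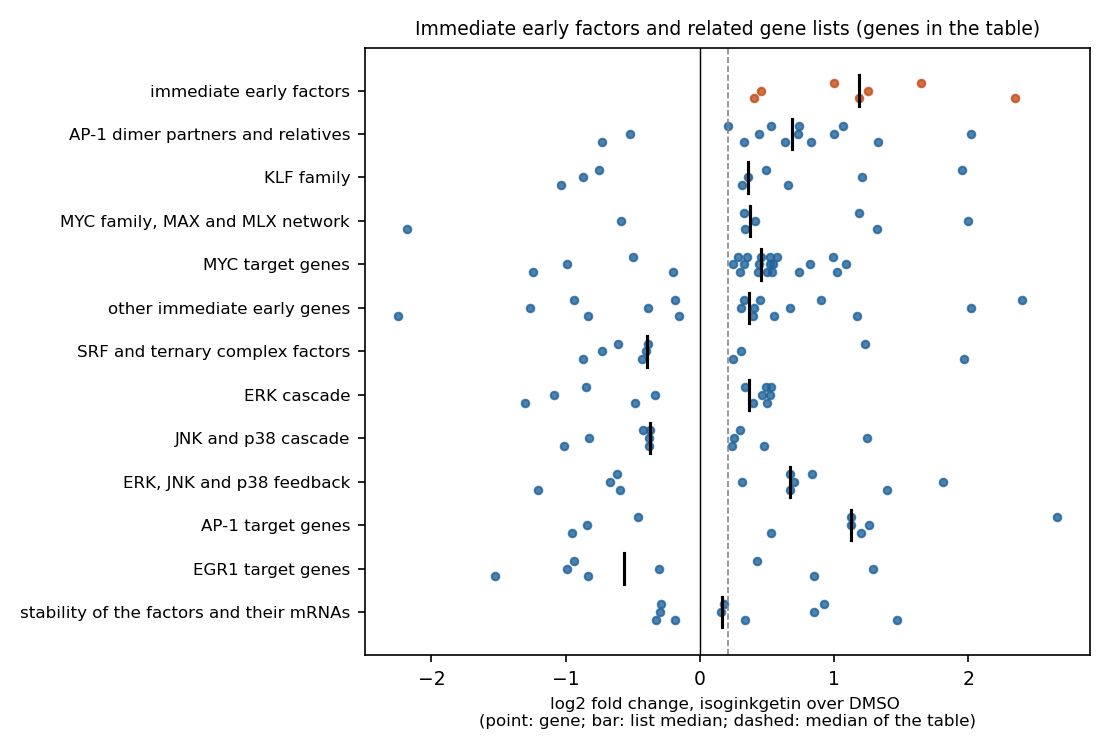
Log2 fold change, isoginkgetin over DMSO, of the 7 immediate early factors (orange) and of the genes in each related list with a row in the authors' deposited table (blue); points are genes, black bars list medians and the dashed line the median of the table (0.21). The factors have the rightmost bar at 1.19, while each list drawn has genes on both sides of 0, with bars from −0.57 for EGR1 targets to 1.12 for AP-1 targets.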

How the data were processed

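Polyadenylated RNA of 4 HepG2 libraries, 2 per group, was sequenced; groups and replicate numbers come from the sample titles, while the design text of the series gives dose and time. The libraries were non-directional, per the labels' protocols. Per the submitters' processing notes, STAR 2.7.0 and featureCounts were used, with the builds hg19 and mm10 named without their role. The authors deposited 1 table of their own comparison, with the columns of a DESeq2 results table per the file headers. Its mean normalized count is a signal that the authors averaged over libraries after scaling. The deposited fold change and SE are on the log2 scale. Both the p-value and its adjusted form were deposited by the authors, and the adjusted ones imply 20024 tested genes under the Benjamini-Hochberg procedure. Depth per library is not given in the sources used here, so no counting interval is printed.

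From this table ranks, folds, intervals (95%, from the SE and the normal distribution), implied group means and list counts were computed with Python 3.11.15 and pandas 2.3.3, after checks on simulated data. The members and lists were chosen with earlier results of these data known, and no test was run on them. A gene of the AP-1 target list and a gene of the marker lists are not reported here and were left out of the counts, medians and plot. Named genes were all members with a row, from each list the 5 largest absolute changes at a mean of at least 100, and set family relatives. SRF, the remaining CREB and ATF genes of the lists, DUSP6, DUSP16 and ERRFI1 were added by name. Motifs were searched on both strands of RefSeq windows, and exon lengths were the union of GENCODE 29 exons. Start-site windows of MYC and FOSL1 and protein sequences were not used here.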

Additional observations from a re-analysis of the deposited data

How the results depend on the processing

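No paired analysis was possible because the table holds no values per library, and for the same reason leaving out replicates and another normalization were not run; the comparison of protein families was not run either. The estimates of all 7 factors stayed higher when centred on the table's median of 0.21, the only alternative that can turn a direction. The 95% intervals of FOSL1 (0.15 to 0.76) and IER2 (0.15 to 0.65) include that median, however. The other alternatives decide only which genes are counted. A minimum of 2-fold left 4 of the 7, a minimum mean of 100 left 6, without FOSB, and the stricter p rules left 5, without FOSL1 and IER2. Over the 13 related lists, 89 different genes were higher and 48 lower. Bonferroni left 56 higher and 26 lower, 1.5-fold left 41 higher and 27 lower, and 2-fold left 24 higher and 10 lower. Centring turned the direction of none of the named genes except ATF2, whose log2 fold change of 0.207 lies just under that median. Dropping the bases after the start changed none of the 7 motif counts over the 8 windows. These rules lower counts by construction, since fewer genes can pass. Depth per library is unknown, and among the 7 the SE is largest for FOSB and FOS, the least abundant.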

Other observations

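The protein-coding genes next to these factors in GENCODE 29, chosen by position alone, moved in both directions. Of 20 such neighbours of the 10 listed factors 9 have a row in the authors' deposited table, 5 higher and 4 lower. Among all tested genes 43.6% have a row, and 51.5% of the rows are higher. The neighbour counts are thus near those of genes in general. TMED10 and JDP2, on either side of FOS, stood at log2 fold changes of 0.67 (SE 0.06) and 0.33 (SE 0.14) per the authors' deposited table, and ETF1, beside EGR1, at 0.65 (SE 0.07). RTN2, beside FOSB, stood at −0.98 (SE 0.25) and CCDC85B, beside FOSL1, at −0.47 (SE 0.11) per the authors' deposited table. GSDMC, the next protein-coding gene after MYC, stood at 4.64 with an SE of 2.91 at a mean of 6.002 normalized counts in that table. Beside JUN, MYSM1 stood at 0.35 (SE 0.09) and FGGY at −1.58 (SE 0.29), and LSM4, beside JUND, at −0.94 (SE 0.09), by the authors' deposited table. Of the genes beside IER2, neither STX10 nor CACNA1A has a row.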
